A study of Mus musculus with 10 samples.

Results

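Mitochondrial ribosomal proteins are the nuclear-encoded subunits of the ribosome that works inside mitochondria. They were taken as every protein-coding gene whose mouse symbol starts with Mrpl or Mrps followed by a digit, which gave 77 of the 28987 gene IDs in the files. The annotation lists 78 such genes, and Mrpl33 is not analysed here. By the place of the protein in the ribosome, 50 of the 77 belong to the large subunit and 26 to the small subunit. Mrps30 and Mrps18a carry a small-subunit name but sit in the large subunit and were counted there. Mrps36 is now known as a part of the 2-oxoglutarate dehydrogenase complex and was counted in neither.

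The study sequenced total RNA, single-end, from ileal crypts, the epithelial pits of the last section of the small intestine, where stem cells, dividing progenitors and Paneth cells lie. There were 3 control libraries (Ctrl; VilCreER;Stat5 (STAT5+/+)), 2 libraries without epithelial Stat5 (KO; VilCreER;Stat5 (STAT5IEC-/-)) and 5 labelled as overexpressing it (OE; VilCreER;icS5 (STAT5IEC+++)). All are labelled C57Bl6, male and 12 weeks of age, and all 3 genotypes carry VilCreER, a Cre recombinase fused to an oestrogen receptor domain and driven by the promoter of villin, a gene of the gut epithelium. Other cells left in a crypt preparation, such as lymphocytes, are not targets of that promoter. Every sample was recorded with the same EDTA concentration (10 mM), temperature (37 C) and shaking time (30 min). The labels do not spell out the icS5 allele, and no control of its own line is analysed here. Whether the libraries of a group stem from different animals is not said, and p-values therefore cover only how these samples spread, which may be technical.

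The mitochondrial ribosome translates the 13 proteins encoded by mitochondrial DNA, all of them parts of the respiratory chain and the ATP synthase. Its RNAs come from mitochondrial DNA, but its proteins are made in the cytosol from nuclear genes and imported. Some of these proteins descend from bacterial ribosomal proteins and others were added during mitochondrial evolution, and the genes lie scattered over the genome. In the crypt, oxidative metabolism is high in stem cells and in absorptive cells, while Paneth cells are known to rely more on glycolysis. Many of these genes have promoters without a TATA box, with sites for ETS-family factors such as GABPA and for NRF1 and YY1.

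Deposited values are TPM, a length-corrected share of all transcripts, from which the depth of a library cannot be read. They were divided by 1 factor per library (median ratio to the geometric mean over genes) and are called scaled TPM. Ctrl 2 stood apart: 83.7% of its TPM came from mitochondrial DNA, against 43.3% to 57.0% in the other 9 libraries, and its factor was 0.295 against 0.831 to 1.31. Cell markers differed there too. In Ctrl 2 Paneth cell markers summed to 383 scaled TPM (at least 2264 elsewhere) and stem cell markers to 76.8 (at least 111 elsewhere). Enterocyte markers summed to 10230 in Ctrl 2, against at most 7630 elsewhere. Stat5a and Stat5b, the targeted genes, were lower in both KO libraries than in any Ctrl library. Stat5a read 1.52, 2.597 and 1.07 scaled TPM in the 3 Ctrl libraries, 0.637 and 0.336 in KO, and 1.56, 2.10, 3.55, 2.81 and 2.81 in OE 1 to OE 5. Stat5b read 1.72, 1.76 and 0.971 in Ctrl, 0.482 and 0.430 in KO, and 1.49, 3.50, 4.71, 5.53 and 2.65 in OE. For both genes the library labelled OE 1 lay within the Ctrl range. In Ctrl 3, OE 3 and OE 4, Y-linked transcripts summed to 0.140 to 3.45 deposited TPM against 32.3 to 131 elsewhere, although the labels say male throughout. Epithelial markers (Epcam, Cdh1 and 4 keratins) summed to 2258 to 5354 scaled TPM, while 6 smooth muscle markers summed to 1.31 to 3.38 and 6 endothelial markers to 0.321 to 6.49. In bulk crypts, fewer cells of a type and less RNA per cell cannot be told apart.

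All 77 genes passed the filter for testing, 1 TPM or more in 2 or more libraries, and 73 of them were above 0 in every library. Promoter windows in RefSeq (GRCm38.p6) reach from 250 bases before to 50 bases after each start, and 68 of the 77 genes matched a window, 74 windows in all. For 6 genes the stretch is printed up to the start, or to the end of a pattern that spans it or begins just after it. Mrps12, Mrpl58 and Mrpl22 are shown because their levels stand out in the results and each holds the ETS core. They were picked for both. Other genes whose levels stand out, among them Mrpl36, Mrpl44, Mrpl2, Mrpl23, Mrpl14 and Mrpl47, have no ETS core in their windows. Mrpl34, Mrps22 and Mrpl50 are shown because each holds the letters that STAT proteins bind, overlapping those of ZNF143. Capitals mark CCGGAAG (ETS), TTCNNNGAA (STAT) and the core of the ZNF143 pattern, each sought on both strands. In the Mrps12 stretch (chr7:28741814-28741991, minus strand) the ETS core lies just after the start, in the first transcribed bases. The rest lies between the starts of Mrps12 and Sars2, the mitochondrial seryl-tRNA synthetase, which face away from each other 172 bases apart.
Mrps12: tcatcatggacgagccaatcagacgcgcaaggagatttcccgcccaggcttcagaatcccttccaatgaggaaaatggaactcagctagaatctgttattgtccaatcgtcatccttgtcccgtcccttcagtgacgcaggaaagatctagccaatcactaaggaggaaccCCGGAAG
The Mrpl58 stretch (chr11:115403502-115403756, plus strand) holds 2 ETS cores, 17 and 2 bases before the start.
Mrpl58: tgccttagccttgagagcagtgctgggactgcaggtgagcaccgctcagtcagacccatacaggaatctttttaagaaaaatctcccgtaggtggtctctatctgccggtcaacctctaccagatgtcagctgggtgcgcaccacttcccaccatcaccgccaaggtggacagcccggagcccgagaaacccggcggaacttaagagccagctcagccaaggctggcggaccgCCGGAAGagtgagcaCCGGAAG
The Mrpl22 stretch (chr11:58171414-58171660, plus strand) holds 1 ETS core, 53 bases before the start.
Mrpl22: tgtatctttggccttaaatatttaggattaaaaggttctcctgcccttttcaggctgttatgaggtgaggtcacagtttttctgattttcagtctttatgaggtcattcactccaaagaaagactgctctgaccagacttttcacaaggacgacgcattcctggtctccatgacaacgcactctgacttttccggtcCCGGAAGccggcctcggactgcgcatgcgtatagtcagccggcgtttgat
The Mrpl34 stretch (chr8:71464676-71464928, plus strand) holds 3 ZNF143 matches, 1 of them joined to an ETS core and 1 to a STAT match.
Mrpl34: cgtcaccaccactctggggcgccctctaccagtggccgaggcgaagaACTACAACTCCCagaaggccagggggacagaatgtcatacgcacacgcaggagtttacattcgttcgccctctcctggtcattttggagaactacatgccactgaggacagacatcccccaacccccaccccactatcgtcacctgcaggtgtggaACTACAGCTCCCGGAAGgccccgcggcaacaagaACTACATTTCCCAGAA
The Mrps22 stretch (chr9:98601680-98601929, minus strand) holds a joined ZNF143 and STAT match further from the start, and 1 ETS core.
Mrps22: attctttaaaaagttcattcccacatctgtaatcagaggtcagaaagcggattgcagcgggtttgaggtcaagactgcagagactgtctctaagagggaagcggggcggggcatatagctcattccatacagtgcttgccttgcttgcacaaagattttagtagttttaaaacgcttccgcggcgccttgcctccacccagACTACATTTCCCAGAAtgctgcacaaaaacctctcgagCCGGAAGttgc
The Mrpl50 stretch (chr4:49521094-49521175, minus strand) lies between the starts of Mrpl50 and Zfp189, a zinc finger gene on the other strand.
Mrpl50: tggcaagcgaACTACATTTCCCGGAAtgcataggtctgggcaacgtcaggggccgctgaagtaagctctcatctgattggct
In these last 3 genes 1 run of letters serves both patterns, since the end of the ZNF143 pattern supplies the first letters of the STAT pattern.

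The ETS core was present in 33.8% of the members' windows, against 17.6% of the 12151 windows of tested genes and 8.86% of all 32851 windows. The YY1 letters AAGATGGCG were present in 10.8% against 3.04% and 1.40%, and the palindromic NRF1 consensus in 4.05% against 2.05% and 0.971%. The ZNF143 letters were in 6.76%, against 3.85% of the windows of tested genes and 1.81% of all windows. TATAAA, the core of the TATA box, was in 6.76% against 7.36% and 13.6%. The STAT letters were in 8.11%, close to the 6.96% of tested genes and the 8.30% of all windows. They lay in 6 genes (Mrpl30, Mrpl34, Mrpl42, Mrpl50, Mrps22 and Mrps25), and 3 of their 8 matches overlapped a ZNF143 match. GC content was alike, with a median of 58.8% in the members' windows and 60.3% in those of tested genes. The patterns were chosen with earlier results known, and a match describes the letters only.

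The genes differed widely in level. The mean over the 10 libraries reached from 1.24 scaled TPM (Mrpl17) to 146 (Mrpl58), a 118-fold range, with a median of 14.4. A mean of at least 10 was found for 46 genes and of at least 50 for 6, while 12 were under 5. Large-subunit genes had a median of 14.8 and small-subunit genes of 12.6. Genes classed as of bacterial ancestry had a median of 15.3 (45 genes) and those classed as added in mitochondria of 14.2 (31 genes). Mrps18a and Mrps18b, homologs of bacterial S18, were counted in the second class, so the classes do not follow descent strictly.

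**Figure D1:**
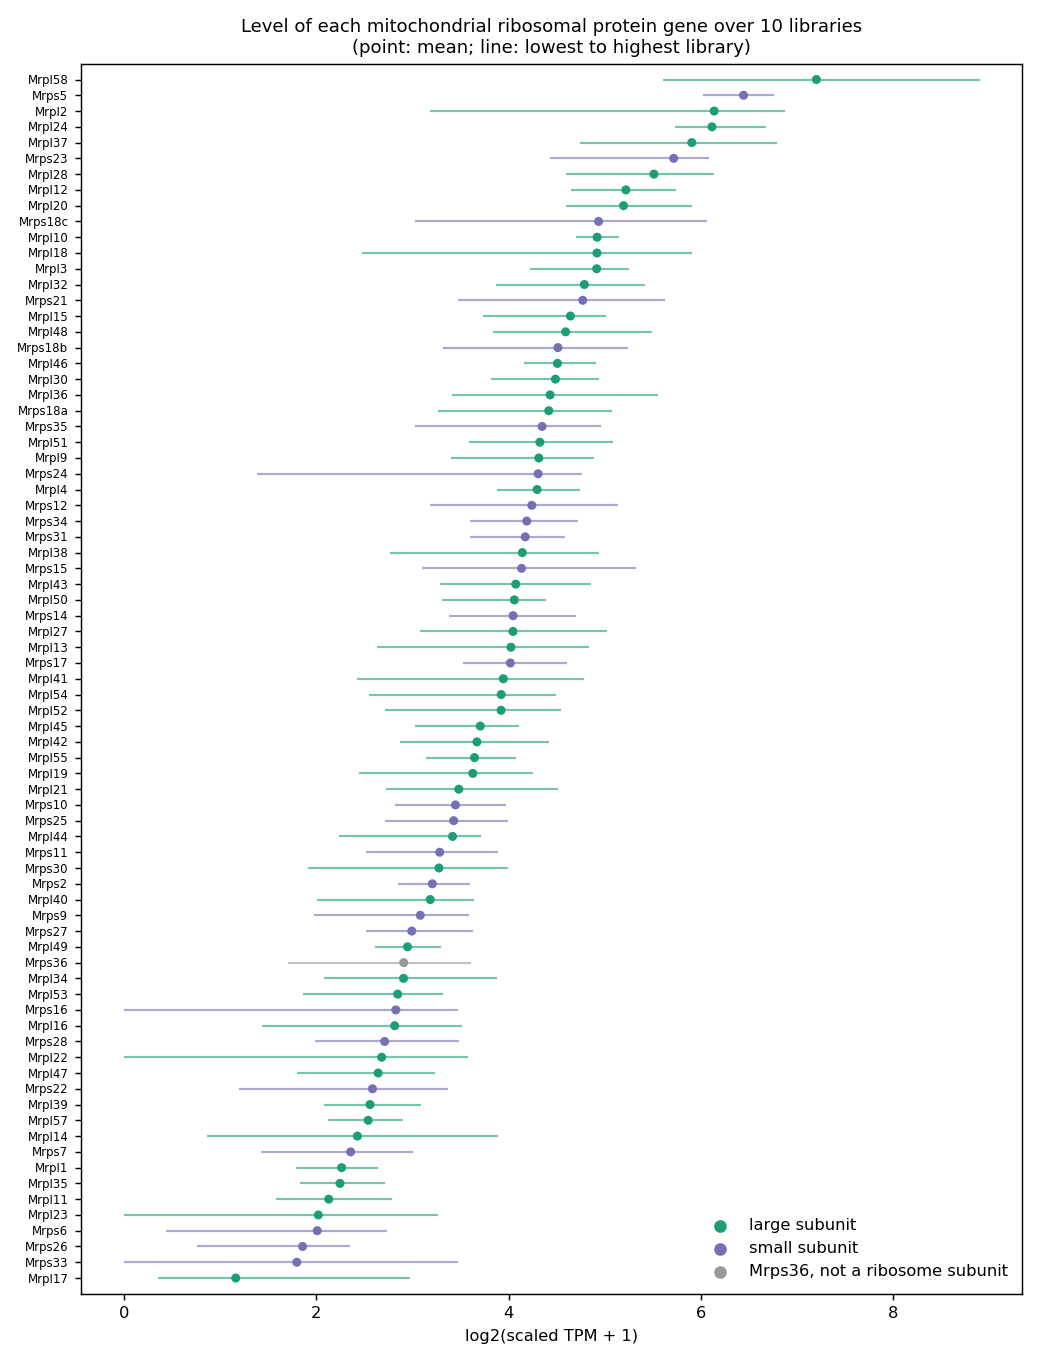
Level of each of the 77 genes on the log2(scaled TPM + 1) axis, 1 row per gene from the highest to the lowest mean, with a point for the mean over 10 libraries and a line from the lowest to the highest library. Mrpl58 leads at a mean of 146 scaled TPM and Mrpl17 closes at 1.24, and Mrpl2, Mrpl22 and Mrps33 have long lines.

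Mrpl58, also called Ict1, is a peptidyl-tRNA hydrolase that became a subunit and is known to rescue stalled ribosomes. It stood at 167, 47.7 and 74.0 scaled TPM in Ctrl, at 93.2 and 476 in KO, and at 135, 120.4, 119, 94.7 and 134 in OE. KO 2 lay far above the other 9 libraries, and there Mrpl58 alone made up 29.2% of the summed level of the 77 genes, against 4.10% to 12.7% elsewhere. Mrps5, a small-subunit protein near the entry of the mRNA, was at 88.7, 97.2 and 108 in Ctrl, at 92.2 and 72.8 in KO, and at 66.7, 96.0, 64.0, 99.5 and 75.2 in OE. Its groups overlapped, and its highest library was 1.68 times its lowest. Mrpl24, a large-subunit protein, reached from 52.1 to 101 over the libraries, Mrpl37 from 25.7 to 109.5 and Mrps23 from 20.5 to 66.7. The lowest of these values for Mrpl37 and Mrps23 were both in Ctrl 2.

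Mrpl2, a large-subunit protein near the peptidyl transferase centre, had the largest SD of the 77 genes on the log2 scale. It was at 38.4, 10.3 and 116 scaled TPM in Ctrl, at 84.7 and 16.6 in KO, and at 108, 109, 113, 8.08 and 90.2 in OE. Ctrl 2, KO 2 and OE 4, 1 library of each group, lay low, and no other library was under 38.4. At the low end, Mrps33 was at 0.382 and 10.2 in Ctrl 1 and 2, 0.384 in KO 1, and at 2.57, 0.265, 1.31, 8.69 and 1.04 in OE, and it was listed at 0 in Ctrl 3 and KO 2. Mrps26 was between 0.689 and 4.12, Mrps6 between 0.355 and 5.65, and Mrpl17 between 0.280 and 0.821 except in Ctrl 2, where it was at 6.89. Mrps6 is a small-subunit protein of bacterial ancestry, Mrps26 one added in mitochondria, and Mrpl17 sits at the exit of the nascent chain.

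Other genes listed at 0 in a library were Mrpl22 and Mrps16 in Ctrl 2 and Mrpl23 in KO 1 and OE 3. Mrps16, a small-subunit protein of bacterial ancestry, was between 3.15 and 10.1 scaled TPM in the other 9 libraries. Mrpl23, another large-subunit protein near the exit tunnel, was otherwise at 1.60, 4.23 and 8.59 in Ctrl, 0.420 in KO 2 and 2.91, 6.66, 5.63 and 0.583 in OE 1, 2, 4 and 5. Its annotated pseudogene Mrpl23-ps1 was at 11.6 in KO 1 and 6.10 in OE 3, the 2 libraries where Mrpl23 was listed at 0. The pseudogene was itself listed at 0 in Ctrl 2, Ctrl 3, OE 2 and OE 4. Its highest value, 13.4, came from OE 1, where Mrpl23 was not at 0 but stood at 2.91. Ctrl 1, KO 2 and OE 5 gave 3.85, 2.22 and 5.69 for the pseudogene. How reads were split between gene and copy is not given in the sources used here, so the values of Mrpl23 are uncertain, as are those of Mrpl48 and Mrps36, which also have annotated copies.

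The most even genes were Mrpl10, Mrps2 and Mrpl46. Mrpl10, part of the stalk base of the large subunit, reached only from 24.97 to 34.6 scaled TPM over all 10 libraries, with an SD of 0.15 on the log2 scale. Mrps2 and Mrpl46 had SDs of 0.22 and 0.23. At the other end, Mrpl2 had an SD of 1.49, Mrps33 of 1.28 and Mrpl23 of 1.24. The median SD over the 77 genes was 0.50, against 0.48 over all genes tested and 0.44 over the 6461 genes tested at like levels. The highest library exceeded the lowest by more than 4-fold for 32 genes, those listed at 0 included, and by less than 2-fold for 8.

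**Figure D2:**
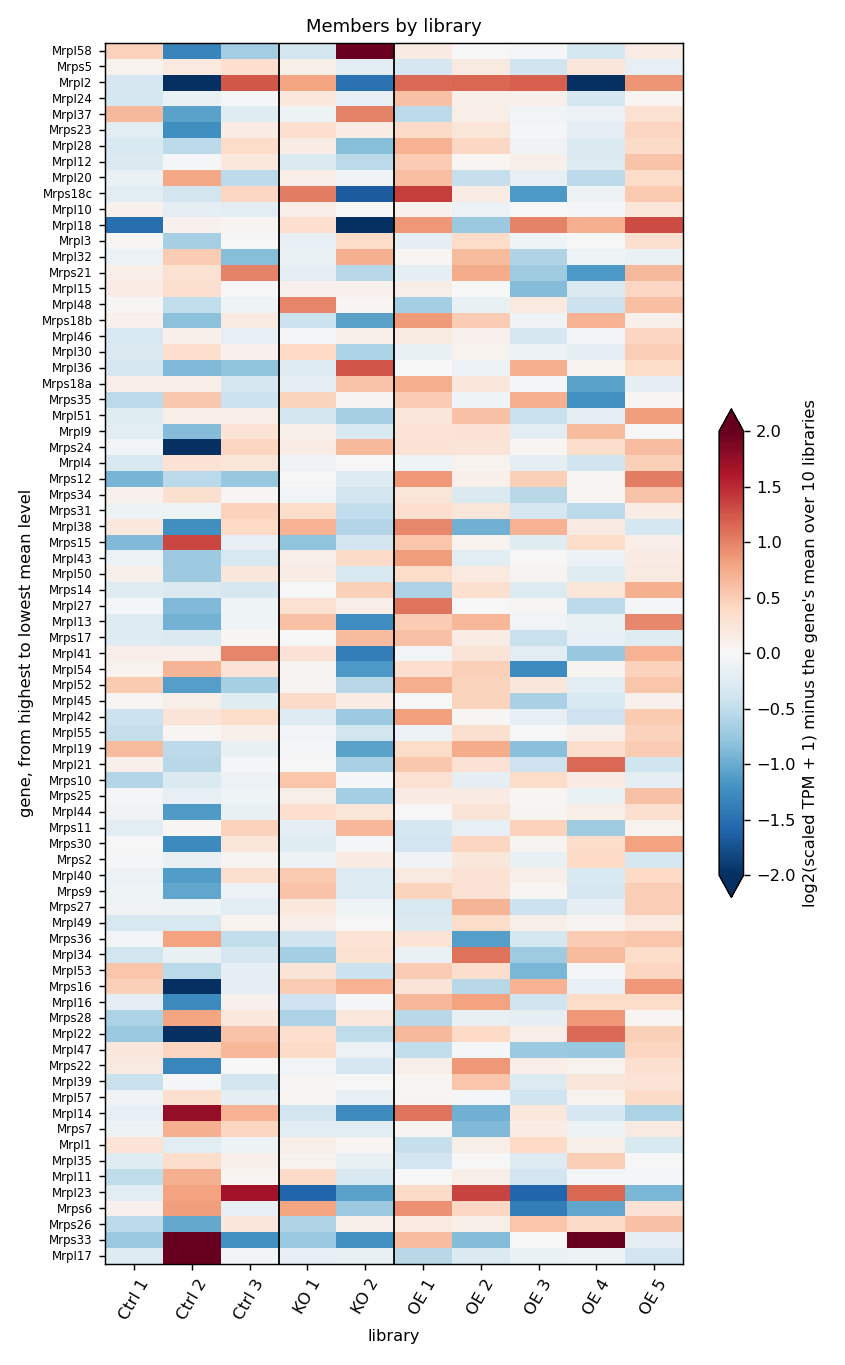
Each of the 77 genes (rows, from the highest to the lowest mean) in each of the 10 libraries (columns), coloured by log2(scaled TPM + 1) minus the mean of the gene over all libraries, with the scale ending at -2 and 2. OE 5, OE 1 and OE 2 are mostly red, and Ctrl 2 holds the strongest colours of both signs.

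Within some libraries most of the genes lay on the same side of their medians. In OE 1, OE 2 and OE 5, 54, 53 and 61 of the 77 genes lay above their own median over the 10 libraries. The other OE libraries, OE 3 and OE 4, had 28 and 32, within the range of the Ctrl (22, 30 and 37) and KO (40 and 28) libraries. Over all genes tested that share was 44.5% to 51.4% in every library. The 5 OE libraries were therefore on both sides, and OE 1 with its Ctrl-range Stat5 level was among the high ones. OE 3 and OE 4 are 2 of the 3 libraries with low Y-linked transcripts, and their part in this split was not tested.

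Summed over the 77 genes, the level was 1307 ± 139.6 scaled TPM over the 3 Ctrl libraries (mean ± SD), 1558 ± 106 over the 2 KO libraries and 1536 ± 220.0 over the 5 OE libraries. Mrpl58 in KO 2 alone carried much of the KO value. Without Mrpl58 the sums were 1211 ± 136 in Ctrl, 1274 ± 164 in KO and 1415 ± 205 in OE, and the ranges of the 3 groups overlapped (1115 to 1367, 1157 to 1390 and 1167 to 1611). The ratio of the large-subunit sum without Mrpl58 to the small-subunit sum was 1.95 ± 0.148 in Ctrl, 2.05 ± 0.0541 in KO and 2.11 ± 0.201 in OE. The ranges of the groups overlapped.

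**Figure D3:**
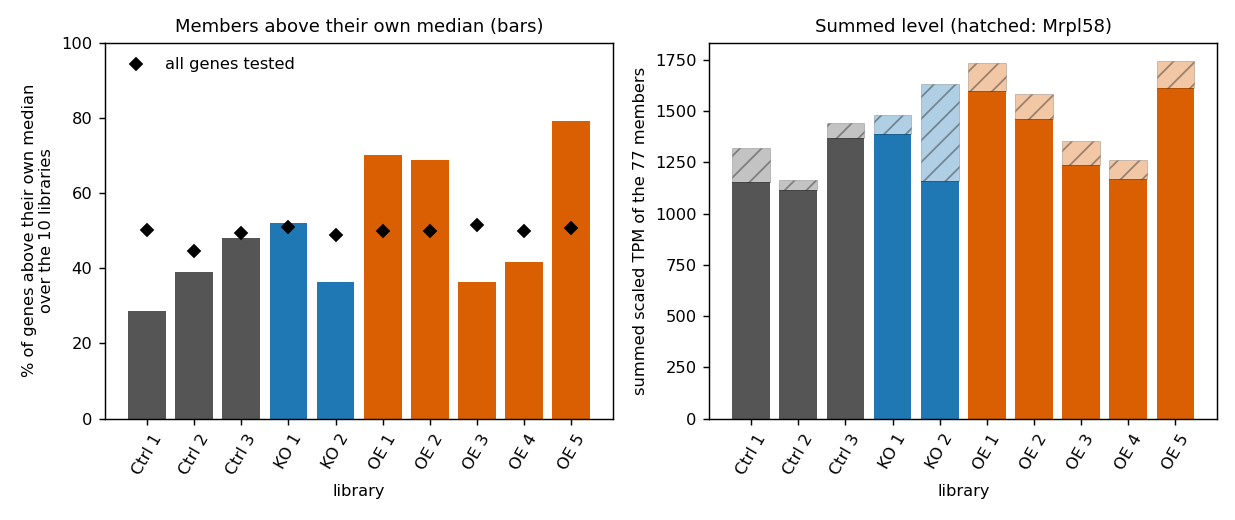
Left, share of the 77 genes above their own median in each library (bars, in percent) with the same share over all genes tested (diamonds). Right, summed scaled TPM of the 77 genes in each library, with the part from Mrpl58 hatched. OE 1, OE 2 and OE 5 reach 70.1%, 68.8% and 79.2% on the left, and Mrpl58 takes 29.2% of the bar of KO 2 on the right.

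The first comparison, KO against Ctrl, asks what loss of epithelial Stat5 does to crypt transcripts. None of the 77 genes passed an adjusted p of 0.05 (limma, Benjamini-Hochberg over 13056 genes), and the smallest adjusted p among them was 0.943. No gene in the genome-wide table passed either (0%), and 452 genes were under 0.05 before adjustment. Of the 77, 42 had a log2 difference above 0 (53.0% of all genes tested did), with a median of 0.09 against 0.04 over all genes. The large subunit had a median of 0.09 and the small subunit of 0.11. Without the scaling, on values as deposited, 64 of 77 differences were above 0, with a median of 0.48 against 0.38 over all genes. Without KO 1 the median was -0.03. Macrophage markers summed to 7.615 to 19.58 scaled TPM in KO against 4.536 to 7.577 in Ctrl, and fibroblast markers to 12.25 to 41.87 against 2.38 to 17.2. T cell markers summed to 24.4 to 65.2 in KO against 42.5 to 153 in Ctrl. The part of these cells in the members' values was not tested.

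In this comparison the KO libraries lay above every Ctrl library for 11 of the 77 genes (9.09% of all genes tested) and below every one for 8 (7.27%). Before adjustment 2 genes were under 0.05 and higher in KO (1.94% of all genes) and 2 lower (1.52%). Mrpl36, a small zinc-binding protein of the large subunit, had the smallest p. It was at 14.5, 9.65 and 10.2 scaled TPM in Ctrl and 15.3 and 45.9 in KO, a log2 difference of 1.18 (SE 0.43, limma adjusted p = 0.943). KO 1 lay only just above Ctrl 1, and without KO 2 the difference was 0.41. Mrpl44, which has the fold of ribonuclease III, was at 8.84, 3.71 and 8.31 in Ctrl and 12.1 and 11.2 in KO. Both KO libraries were higher, and the log2 difference of 0.74 was 0.41 without Ctrl 2. Mrps10 was at 6.06, 7.73 and 8.85 in Ctrl and 14.7 and 9.43 in KO, and Mrpl43 at 13.97, 8.77 and 12.0 against 16.5 and 20.1. For Mrpl58 the log2 difference of 1.32 (SE 0.64) was 0.15 without KO 2.

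On the lower side, Mrpl23 had a log2 difference of -2.09 (SE 0.87) on the values given above, with KO 1 listed at 0. Mrpl14, a large-subunit protein that meets the small subunit, was at 2.89, 13.8 and 6.12 in Ctrl and 2.38 and 0.824 in KO. Its groups did not overlap, although Ctrl 1 and KO 1 lay close together, and the log2 difference was -1.58 (SE 0.67, limma adjusted p = 0.943). Mrpl41 was at 14.4, 14.1 and 26.6 in Ctrl and 16.2 and 4.39 in KO, and Mrpl54 at 13.7, 21.5 and 15.9 against 13.5 and 5.33. In both, KO 2 was the low library, and without it the log2 differences were -0.12 and -0.29. Mrps21 was at 26.2, 29.7 and 48.3 in Ctrl and 20.6 and 15.8 in KO, with no overlap.

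The second comparison, OE against Ctrl, asks what the overexpressing genotype does. Again none of the 77 genes passed (smallest adjusted p 0.755, limma), and 0% of all genes did, with 797 under 0.05 before adjustment. More of the members lay higher in OE: 52 of 77 log2 differences were above 0 (52.1% of all genes tested), with a median of 0.21 against 0.02 over all genes. The median was 0.24 in the large subunit and 0.19 in the small subunit. On values as deposited, 70 of 77 were above 0, with a median of 0.65 against 0.36 over all genes. Over the fits that left out 1 library, the median stayed between 0.15 and 0.27, and without the 3 libraries low in Y-linked transcripts it was 0.41, with 60 of 76 above 0. Markers of dividing cells (Mki67, Top2a, Pcna, Ccnb1, Cdk1 and Mcm6) summed to 175 to 259.8 scaled TPM in OE. In Ctrl 1, 2 and 3 they summed to 209, 52.7 and 183, so only Ctrl 2 lay below the OE range. Paneth cell markers summed to 3501 to 11210 in OE against 383 to 5449 in Ctrl, where Ctrl 2 was lowest. B cell markers summed to 21.7 to 189 in OE against 4.82 to 30.6 in Ctrl. T cell markers summed to 76.5 to 321 in OE against 42.5 to 153 in Ctrl, and fibroblast markers to 1.26 to 48.4 against 2.38 to 17.2. Their part in the members' values was not tested.

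OE libraries lay above every Ctrl library for 3 members (2.21% of all genes tested) and below every one for 0 (1.52%). Those 3 were Mrps12, Mrpl36 and Mrpl44. Before adjustment 6 members were under 0.05 and higher in OE (3.79% of all genes) and 1 lower (2.31%). Mrps12 (chr7:28739641-28741820, minus strand) encodes a protein of the decoding centre of the small subunit. It was at 8.08, 10.8 and 9.14 scaled TPM in Ctrl, at 16.3 and 13.4 in KO and at 30.4, 17.5, 23.0, 16.5 and 34.1 in OE. Every OE library was above every KO library and every KO library above every Ctrl library. The log2 difference of OE against Ctrl was 1.24 (SE 0.27, 95% interval 0.64 to 1.85, limma adjusted p = 0.755), the 8th smallest p of 13056 genes. Over all alternatives it stayed between 0.99 and 1.68, with adjusted p from 0.369 to 1.00, and leaving out 1 library gave 1.11 to 1.37. Sars2, whose start lies 172 bases away on the other strand, was at 0.676 to 2.98 in all 10 libraries, with a log2 difference of 0.05 (SE 0.31).

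Mrpl36 in OE was at 18.8, 17.1, 30.9, 19.5 and 24.1 scaled TPM, all above the Ctrl values given for it, with a log2 difference of 0.88 (SE 0.34, limma adjusted p = 0.755). Mrpl44 was at 9.37, 11.3, 9.79, 10.3 and 12.0 in OE. It lay above Ctrl in every library, but the difference of 0.61 was 0.26 without Ctrl 2, where the gene was lowest. Mrpl22, which lines the exit tunnel, was at 2.24 and 7.07 in Ctrl 1 and Ctrl 3, was listed at 0 in Ctrl 2, and stood at 7.51, 6.19, 4.96, 10.95 and 6.57 in OE. Its difference of 1.43 (SE 0.56) was 0.66 without Ctrl 2. Mrps26 was at 1.39, 0.689 and 3.00 in Ctrl and 2.91, 2.71, 4.06, 3.47 and 4.12 in OE, near the pseudocount of 1, where the log2 scale understates a change. Mrpl16, a large-subunit protein of bacterial ancestry, was the other member under 0.05 and higher, at 4.71, 1.70 and 5.94 in Ctrl and 9.38, 10.4, 3.99, 7.48 and 7.47 in OE.

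The log2 difference was below 0 for 25 of the 77 genes, and Mrpl47 was the 1 under 0.05 and lower before adjustment. It was at 5.90, 6.95 and 8.40 scaled TPM in Ctrl and 3.21, 4.82, 2.54, 2.49 and 6.98 in OE, a log2 difference of -0.76 (SE 0.32, limma adjusted p = 0.755). Of the OE libraries only OE 5 reached the Ctrl range, and without the 3 libraries low in Y-linked transcripts the difference was -0.34. Ndufb5 on the opposite strand, at a mean of 296 scaled TPM, shares 13.9% of the exon bases of Mrpl47, so the values of Mrpl47 are uncertain. Mrpl17 had a difference of -0.88 and Mrpl14 of -0.89, and in both Ctrl 2 was the highest library of all 10. Without Ctrl 2, Mrpl14 was at -0.41 and Mrpl17 no longer passed the filter. Mrps7, at the head of the small subunit, was at 3.60, 7.07 and 5.64 in Ctrl and 4.12, 1.68, 4.496, 3.62 and 4.57 in OE, a difference of -0.46 (SE 0.31) that was -0.27 without OE 2 and -0.29 without Ctrl 2.

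**Figure D4:**
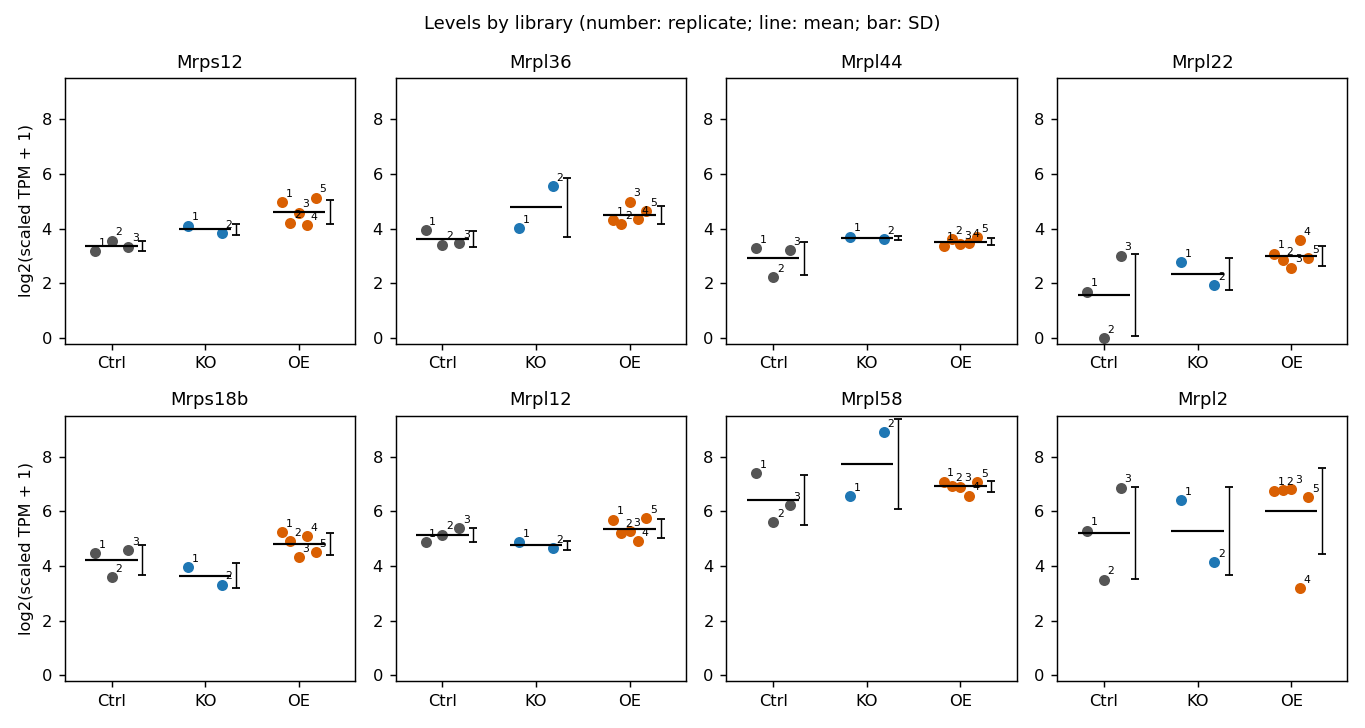
Level on the log2(scaled TPM + 1) axis of 8 genes in Ctrl, KO and OE, with 1 numbered point per library, a line for the group mean and a bar for 1 SD. Mrps12 is ordered Ctrl, KO, OE without overlap, Mrpl58 has 1 high library (KO 2) and Mrpl2 has a low library in each group.

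The third comparison sets OE against KO, the 2 genotypes furthest apart in Stat5. None of the 77 genes passed (every adjusted p was 1, limma), and 0% of all genes did, with 385 under 0.05 before adjustment. The median log2 difference was 0.04 against 0.00 over all genes, and 47 of 77 were above 0 (49.9% of all genes tested). The median was 0.25 without KO 1, and 0.22 without the 3 libraries low in Y-linked transcripts. OE lay above both KO libraries in every OE library for 6 members (4.04% of all genes) and below for 0 (4.43%). These 6 were Mrps18b, Mrpl12, Mrps12, Mrps26, Mrps15 and Mrps22, of which 5 belong to the small subunit. T cell markers summed to 76.5 to 321 scaled TPM in OE and to 24.4 to 65.2 in KO, and 4 of the 6 T cell genes lay above both KO libraries in every OE library. Their part in the members' values was not tested. The OE libraries are the same as in the second comparison and the KO libraries the same as in the first, so the 3 comparisons share samples.

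Mrps18b, 1 of 3 mitochondrial homologs of bacterial S18, was the only member under 0.05 before adjustment (1.62% of all genes were so and higher, 1.33% lower). It was at 14.7 and 9.01 scaled TPM in KO and at 36.9, 28.9, 19.0, 33.01 and 21.8 in OE, while Ctrl, at 21.3, 10.99 and 22.8, overlapped both. The log2 difference was 1.17 (SE 0.36, 95% interval 0.37 to 1.97, limma adjusted p = 1). It stayed between 0.84 and 1.49 when 1 library was left out. An antisense gene, Gm16279, shares 30.5% of its exon bases, and whether the counting used strand is not given in the sources used here, so reads of the 2 cannot be told apart. Mrpl12, the stalk protein that also binds the mitochondrial RNA polymerase, was at 28.5 and 24.0 in KO and 50.7, 36.2, 38.0, 29.0 and 52.6 in OE. KO 1 and OE 4 were nearly equal, and the difference was 0.60 (SE 0.28). Mrpl51 was at 13.8 and 11.1 in KO and 21.3, 27.6, 12.96, 15.7 and 32.98 in OE, a difference of 0.71 (SE 0.35).

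Mrpl18, known to bind 5S RNA in import studies, was at 29.5 and 4.57 scaled TPM in KO and 43.4, 13.4, 47.3, 39.0 and 59.1 in OE. KO 2 lay low, and the difference of 1.52 was 0.30 without it. On the lower side, Mrpl48 was at 43.9 and 22.3 in KO and 13.3, 19.5, 25.02, 15.98 and 33.5 in OE, a difference of -0.60 that was -0.12 without KO 1. Mrpl58 stood at -0.81, and without KO 2 its sign turned, to 0.36. Mrpl47 was at -0.46, and at -0.20 without KO 1. Mrpl45, which anchors the ribosome to the inner membrane, was at 15.6 and 13.1 in KO and 11.7, 16.3, 7.16, 9.29 and 12.6 in OE, a difference of -0.35 (SE 0.30) that was -0.21 without OE 3 and -0.22 without KO 1.

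**Figure D5:**
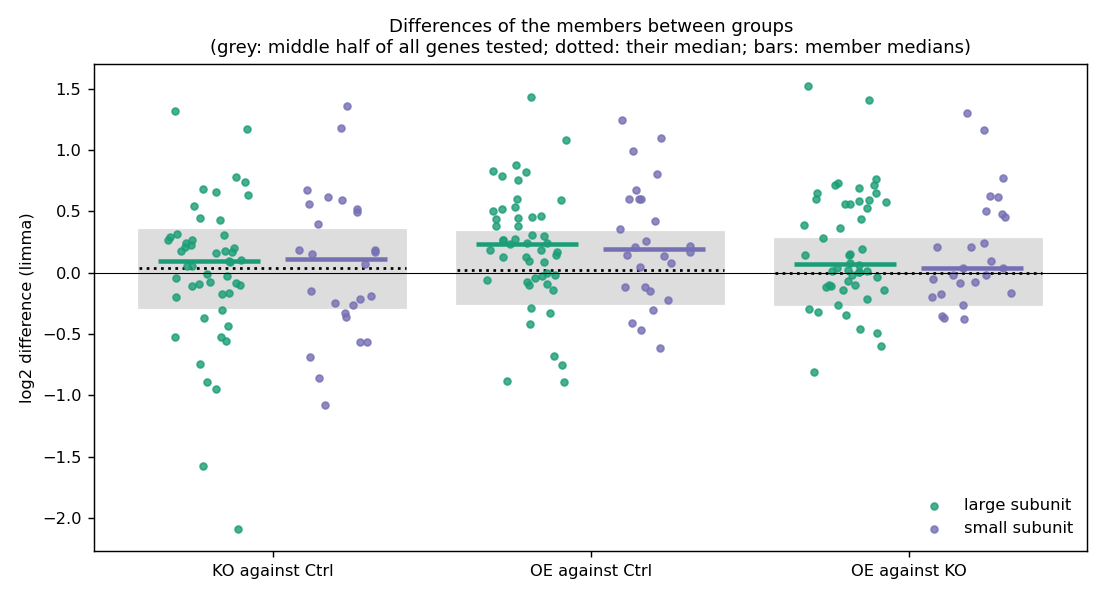
log2 difference of each large-subunit gene (50 points) and small-subunit gene (26 points) in the 3 comparisons, with coloured bars for their medians, a dotted line for the median of all genes tested and a grey box for the middle of all genes (25th to 75th percentile). The member medians lie at 0.24 and 0.19 for OE against Ctrl, inside the box.

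Genes with a role of their own behaved in different ways. The 3 homologs of bacterial S18 differed among themselves: Mrps18c was at 21.4, 19.1 and 33.4 scaled TPM in Ctrl, 51.6 and 7.16 in KO and 66.0, 27.8, 10.6, 23.2 and 36.0 in OE. Mrps18a, the homolog in the large subunit, was at 21.3, 21.2 and 15.1 in Ctrl, 17.0 and 29.3 in KO and 32.8, 22.8, 18.8, 8.63 and 17.0 in OE. Of the 3, Mrps18c thus spread most within groups, and Mrps18b alone kept OE above KO. Mrps30 was at 8.15, 2.78 and 9.79 in Ctrl, 6.74 and 7.95 in KO and 6.03, 11.3, 8.46, 10.8 and 14.9 in OE, overlapping in every comparison. Mrps36 was at 2.26 to 11.2 with overlapping groups.

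Sorted by these ancestry classes, the 45 genes classed as bacterial had median log2 differences of -0.01 in KO against Ctrl. They had 0.21 in OE against Ctrl and 0.04 in OE against KO. The 31 genes classed as added in mitochondria, with Mrps18a and Mrps18b among them, had 0.19, 0.22 and 0.08. In OE against Ctrl 24 of those 31 and 28 of the 45 were above 0.

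Other gene groups give the scale of these values. The 80 tested proteins of the cytosolic ribosome had medians of 0.60 in KO against Ctrl, 0.54 in OE against Ctrl and 0.00 in OE against KO. In OE against Ctrl 75 of the 80 lay above 0 and 20 were under 0.05 and higher before adjustment, against 6 of the 77 mitochondrial ones. The 79 nuclear-encoded respiratory chain genes had -0.07, 0.07 and 0.16. The 13 proteins of mitochondrial DNA, the products of the mitochondrial ribosome, had -0.96, -0.73 and 0.19, and all 13 lay lower in both comparisons with Ctrl. Ctrl 2, where mitochondrial DNA gave 83.7% of TPM, is part of both. No test compared these lists, and in none of them did a gene pass an adjusted p of 0.05.

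In the rest of the mitochondrial translation machinery no gene passed an adjusted p of 0.05 either. Among 5 further ribosome subunits with other symbols (Dap3, Ptcd3, Chchd1, Aurkaip1 and Gadd45gip1) the medians were 0.30, 0.10 and -0.05, with 0 of 5 under 0.05 in any comparison. Dap3, a GTP-binding subunit of the small ribosomal subunit, was at 22.4, 20.7 and 19.2 scaled TPM in Ctrl, 29.0 and 22.8 in KO and 28.1, 21.7, 34.5, 19.2 and 23.0 in OE. Another list held 28 genes of ribosome assembly and rRNA modification. In KO against Ctrl, 1 was under 0.05 and higher before adjustment (1.94% of all genes tested) and 1 lower (1.52%). They were Ddx28, a helicase of large-subunit assembly, and Mrm3, an rRNA methyltransferase. In OE against Ctrl, 3 of the 28 were under 0.05 and higher (3.79% of all genes tested). Of these, the GTPase Mtg2 was at 2.44, 0.399 and 3.78 in Ctrl and 5.41, 5.88, 4.29, 6.77 and 4.45 in OE, with a log2 difference of 1.15 (SE 0.39, limma adjusted p = 0.755). It lay above Ctrl in all 5 OE libraries. The other 2 were Ddx28 (0.70) and Trmt61b (1.25), whose gene ID the annotation lists as antisense, both with overlapping groups.

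Of 13 translation factors, 0 were under 0.05 in any comparison, and Tufm, the elongation factor, was at 38.4, 19.0 and 50.4 scaled TPM in Ctrl, 41.4 and 37.5 in KO and 48.1, 52.1, 28.6, 41.4 and 59.3 in OE. Of 17 mitochondrial aminoacyl-tRNA synthetases only Yars2 was under 0.05 in KO against Ctrl, at 9.47, 0.0701 and 10.1 in Ctrl and 17.4 and 23.4 in KO. Ctrl 2 was lowest there too. The 12 genes of mitochondrial transcription and RNA processing had medians of 0.35, 0.32 and -0.03 with 0 under 0.05. Among 9 regulators, Gabpa, which encodes the DNA-binding part of the ETS factor named above, was under 0.05 and lower in KO against Ctrl. It was at 28.8, 27.9 and 18.03 in Ctrl, 14.7 and 13.4 in KO and 15.6, 18.9, 14.6, 18.7 and 24.0 in OE, with a log2 difference of -0.75 (SE 0.29, limma adjusted p = 0.943). Both KO libraries lay below Ctrl, while OE overlapped both. Nrf1, Yy1, Esrra, Ppargc1a and Ppargc1b were not under 0.05 in any comparison.

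Many of these genes have a close neighbour. A protein-coding gene started within 1 kb on the opposite strand for 33 of the 77 genes (42.9%), against 1922 of 11625 tested protein-coding genes (16.5%). The direction of the pair was not part of this count, and some pairs overlap at their starts, such as Mrpl43 and Twnk with 507 shared exon bases. Several of these neighbours are mitochondrial genes as well, and Sars2 is the neighbour of Mrps12. Ndufs6, a complex I subunit, starts 29 bases from the start of Mrpl36 (chr13:73328513-73332178), and the 2 genes share 30 exon bases. Of 27 such pairs with both genes tested, the pair had log2 differences of the same sign in 15, 18 and 14 in the 3 comparisons. Ndufs6 was at 12.3, 20.6 and 19.3 scaled TPM in Ctrl, 21.4 and 9.26 in KO and 22.9, 26.7, 9.52, 15.3 and 27.5 in OE. In KO 2, where Mrpl36 was highest of all libraries, Ndufs6 was lowest. Exon bases were shared with another gene by 32 members and made up at least 10% of the exon bases of 17. The share reached 88.0% in Mrpl53 (with Gm42688), 69.8% in Mrps25 (with Nr2c2) and 63.4% in Mrps34 (with Mapk8ip3). Members named for a difference were among the 17 too, such as Mrpl43 (33.4%, with Twnk), Mrpl47 (13.9%, with Ndufb5) and Mrpl14 (11.2%, with Tmem63b). The values of all these genes are uncertain for that reason.

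Set beside the promoter letters, the 25 genes with an ETS core had median log2 differences of 0.17, 0.44 and 0.24 in the 3 comparisons in that order. In OE against Ctrl 21 of the 25 were above 0, against 52 of all 77 members and 52.1% of all genes tested. In that comparison the medians were 0.13 with YY1 letters, 0.27 with ZNF143 and 0.45 with NRF1. The 43 genes with a window but no core had 0.07, 0.14 and 0.02. The 6 genes with STAT letters had -0.06, 0.25 and 0.44, and the 62 without had 0.17, 0.22 and 0.02. Of these 6 genes with STAT letters, 3 lay above 0 in KO against Ctrl and 5 in OE against Ctrl. All 6 lay above 0 in OE against KO, where 47 of all 77 members and 49.9% of all genes tested did. So did all 5 genes with the ZNF143 letters (median 0.44), 3 of whose matches overlap a STAT match. Mrpl34, Mrpl42, Mrpl50 and Mrps22 hold both patterns, so the STAT and ZNF143 counts rest largely on the same genes. In the same comparison 2 of the 8 genes with YY1 letters (median -0.17) and 2 of the 3 with the NRF1 consensus (median 0.14) were above 0. Mrps22, whose stretch is printed above, was at 5.43, 1.30 and 4.67 scaled TPM in Ctrl, 4.43 and 3.46 in KO and 5.15, 9.36, 5.19, 4.98 and 6.07 in OE. Every OE library was above both KO libraries, and none of the 6 passed the test. These splits were made after the values were seen, carry no test and describe these libraries only.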

How the data were processed

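Total RNA of ileal crypts was measured in 10 libraries, grouped by their labels. The authors deposited TPM per Ensembl gene ID, per the file headers of 9 libraries; that of Ctrl 1 names none, and TPM was inferred from the others and its values. The submitters' processing notes name TopHat, Cufflinks and mm10; the annotation, the strand setting and the tool behind the TPM were not given in the sources used here. No counting interval can be had from TPM. Symbols and coordinates came by ID from GENCODE M21 (GRCm38), which named 27458 of 28987 IDs. TPM were divided by median-ratio factors over the 11146 genes above 0 in every library. Genes with at least 1 TPM in at least 2 libraries were kept (13056). limma 3.58.1 (R 4.3.3) with an intensity trend was fitted to log2(scaled TPM + 1) of all libraries with 3 group means, with Benjamini-Hochberg adjustment over all genes and a threshold of 0.05. The fit was tested on simulated data. Differences are on this log2 scale, which understates changes of low genes.

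Members with values are those with the smallest p per comparison and direction (4 each), the highest 6 and lowest 4 levels, those listed at 0, the largest and smallest 3 SDs, those with a role of their own and up to 4 per direction whose libraries did not overlap. The others named were chosen after their values were seen. Members and lists were chosen with earlier results of these data known. Alternatives were other scalings, pseudocounts, filters and fits, a replicate block and leaving out libraries.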

Additional observations from a re-analysis of the deposited data

Results flagged for a closer look

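For the members named by the rule and for 3 summaries over all members, 39 sets of the 5 OE libraries were looked at for 1 library far from the other 4, by Dixon's ratio of gap to range against 0.710, and 3 exceeded it. Chance gives about 1 in 20 for normally distributed values in sets picked without regard to their spread. Mrpl2 and Mrps33 were among the sets for their large SDs over these same libraries, so that rate does not apply to them. Mrpl2 was at 8.085 scaled TPM in OE 4, against 90.2 to 113 in the other OE libraries, and low values of Mrpl2 also occurred in Ctrl 2 and KO 2. Mrpl43 was at 28.05 in OE 1, against 12.8 to 17.1. Mrps33 was at 8.686 in OE 4, against 0.265 to 2.57.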

How the results depend on the processing

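In every alternative run, 0 of the members passed the threshold in any comparison. The number of all genes called was 5 (KO against Ctrl) and 7 (OE against KO) without a filter, 1 and 1 (KO and OE against Ctrl) with only the groups compared, 1 and 1 (OE against Ctrl and against KO) without the 3 libraries low in Y-linked transcripts, 1 (OE against KO) without Ctrl 2 and the library labelled OE 1, and 0 to 2, 0 to 1 and 0 to 2 in the 3 comparisons when 1 library was left out. Where KO was left with 1 library, that library is assumed to vary like the other groups. Both sets of libraries left out together were chosen after seeing the data. The member median was 0.48 and 0.65 on values as deposited for KO and OE against Ctrl, where the median of all genes shifted to 0.38 and 0.36. Without the 3 libraries low in Y-linked transcripts it was 0.41 (OE against Ctrl) and 0.22 (OE against KO). Leaving out 1 library gave medians of -0.03 to 0.15, 0.15 to 0.27 and 0.023 to 0.253, the last without KO 1. Mrpl58 in OE against KO ranged from -1.98 to 0.36 and changed sign without KO 2. The cause of these shifts was not tested.

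With the replicate number as a block, 3 genes were called in OE against Ctrl, none of them a member, and the member medians were 0.06, 0.18 and 0.12. Deviations from the group means correlated at -0.18 to 0.06 between libraries that share a number. In groups of 2 KO and 3 Ctrl libraries these deviations are tied to each other. Whether the numbers pair the samples can therefore not be told from them. TPM hide the depth, so the precision of low genes such as Mrps33 and Mrpl17 is unknown.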
